A study of Parasteatoda tepidariorum with 75 samples.

Results

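The Pt-hh knockdown was sampled in 2 successive egg sacs of each of 2 females, and the later egg sac was compared with the earlier one to see whether the effect changed with the time after injection. Members were chosen by label: the 4 Pt-hh pRNAi libraries at late stage 5, of 68 libraries with counts and 75 samples listed. Poly(A) RNA of pooled sibling whole embryos went into each library, all of the house spider Parasteatoda tepidariorum (Osaka isolate). Parental RNA interference (pRNAi) means that the mated mother was injected repeatedly with dsRNA, and that the effect was read in the eggs she laid afterwards. Female 1 laid the earlier egg sac on day 16 and the later one on day 20 after the first injection. Female 2 laid them on days 18 and 22. The gap was 4 days in each female, but the days themselves differed, and the earlier sac of female 2 fell between both sacs of female 1. The paper places the usual peak of the dsRNA effect at about day 20. The later sacs lay near that time, so that a decline well after it was not sampled. Each female also gave an untreated egg sac, laid 2 days before the injection, and all 3 egg sacs were sequenced at early stage 3 as well. For comparison, 3 females injected with Pt-ptc dsRNA and 2 injected with gfp dsRNA had earlier and later egg sacs. The jellyfish gene gfp served as the negative control. In the Pt-ptc females the earlier sacs were of day 14 and the later ones of day 18 or 19. For gfp female 1, 2 sacs were taken as earlier, of days 13 and 17, beside a later one of day 22. The sacs of gfp female 2 were of days 15 and 20. Egg sac order goes together with the mother's age and the number of broods laid, and these cannot be told apart from the time since injection.

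Hedgehog (Hh) is a secreted signal. It binds the receptor Patched, which relieves the repression of Smoothened, and the zinc finger factor Cubitus interruptus (Ci) then changes the transcription of target genes, Patched among them. In the germ disc of this spider, Hh made at the disc rim, the future anterior, patterns the anterior-posterior axis. Late stage 5 is the germ disc stage at which genes of the future head, thorax and opisthosoma are expressed in concentric regions.

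The 4 libraries held 6188457 to 8992510 counts on gene models, and the 2 untreated libraries of these females 7119180 and 7528185. In all libraries of the Pt-hh females, untreated ones included, 18 gene models that were low in the other females took a large share of the counts, which in the 4 libraries ranged from 12.6% to 21.8%. Levels are given below as CPM, counts relative to the library total, scaled over the 24 late stage 5 libraries. Differences are the later minus the earlier egg sac on the log2 scale, with the female as a block and the standard error (SE), and adjusted p-values (Benjamini-Hochberg) come from the quasi-likelihood test of edgeR. With 4 libraries and a block only 1 residual degree of freedom was left, so the spread behind each SE was mostly taken from the other gene models.

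The target stayed low in the later egg sacs. In female 1, Pt-hh, the ligand, was at 67 CPM in the untreated egg sac, 2.23 in the earlier and 3.17 in the later one. In female 2 it was at 32.5, 3.28 and 3.14 CPM. Both egg sacs lay far below the untreated one, at 3.33% and 4.73% of it in female 1 and at 10.1% and 9.66% in female 2. The females did not move together between the sacs. The difference was 0.17 ± 0.41 (SE, 2 females; adjusted p = 0.998), and its 95% interval ran from 0.644-fold to 1.98-fold. Pt-hh was counted only 16 to 27 times in each pRNAi library, so that a change of less than about that interval was not detectable at this depth.

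**Figure D1:**
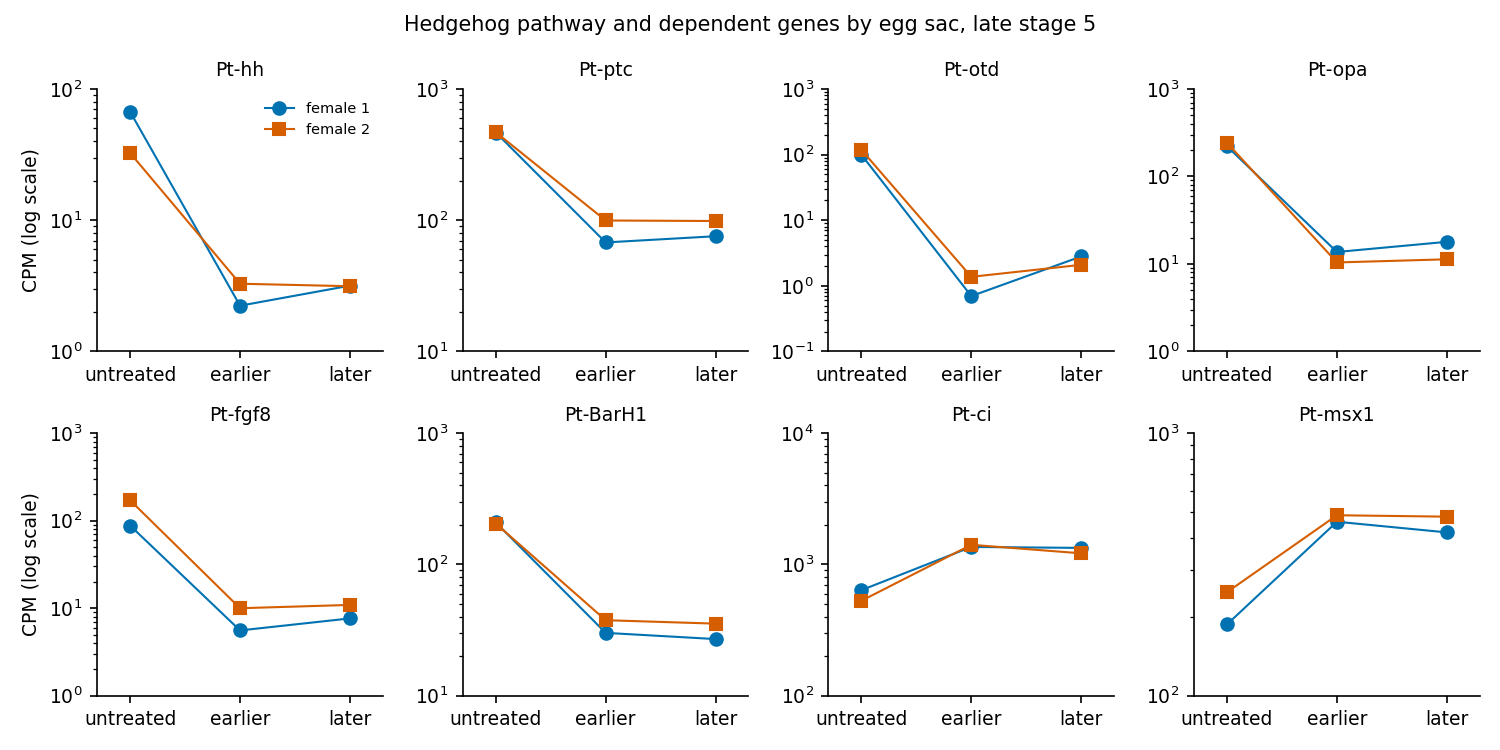
Level of 8 genes (CPM, log scale) in the untreated, earlier and later egg sac of each Pt-hh female at late stage 5; points are single libraries, joined within a female. Pt-ptc, for example, was at 466 CPM in the untreated, 67.7 in the earlier and 75.5 in the later egg sac of female 1.

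Among the pathway components, Pt-ptc, the receptor and itself a target, was at 466, 67.7 and 75.5 CPM in the untreated, earlier and later egg sac of female 1. In female 2 it was at 468, 99.5 and 98.6 CPM. The later egg sac differed from the earlier one by 0.07 ± 0.15 (adjusted p = 0.998), within 0.853-fold to 1.29-fold. Pt-ci, the Gli family effector, was at 637, 1360 and 1337 CPM in female 1 and stood at 267% and 230% of untreated in female 2. It was higher than untreated in each of the 4 pRNAi libraries, and its sac difference was -0.12 ± 0.19. Pt-smo, the signal transducer, lay between 86.6% and 92.4% of the untreated level in all 4. Pt-gas1, of a family of co-receptors in vertebrates, moved in opposite directions in the females, from 85.7 to 97.8 CPM and from 171 to 130 CPM. The models aug3.g24611 and aug3.g27568, both annotated shifted-like and derived from a single gene by the study's account, were lower in the later sac of both females, with differences of -0.31 ± 0.29 and -0.24 ± 0.16 that did not pass (adjusted p = 0.998 each). In Drosophila, shifted is a secreted factor for the movement of Hh.

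The 9 models grouped here as activated by Hh were still depleted in the later egg sacs. Pt-otd, the orthodenticle homeodomain gene of the head, stood at 99.5 CPM in the untreated, 0.697 in the earlier and 2.80 in the later egg sac of female 1. In female 2 it stood at 118, 1.37 and 2.09 CPM. The later level was 2.81% and 1.77% of untreated, against 0.70% and 1.16% in the earlier egg sac. Of this group, Pt-otd had the largest difference, 1.19 ± 0.55. It was higher in the later sac of both females, but with 5 and 10 counts in the earlier sacs and 15 and 18 in the later ones it did not pass in edgeR (adjusted p = 0.838).

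Pt-opa, an odd-paired zinc finger gene of the head, stood at 6.19% of untreated in the earlier and 8.11% in the later egg sac of female 1, and at 4.29% and 4.65% in female 2. Pt-fgf8, a secreted growth factor, stood at 6.34% and 8.69%, and at 5.83% and 6.37%. Both were slightly higher in the later sac of each female, and both sac differences were 0.26, with SEs of 0.22 and 0.26 (adjusted p = 0.998). The Hox gene Pt-lab-A went from 35.5 to 41.9 CPM and from 47.2 to 58.6 CPM, against 150 and 160 CPM in the untreated sacs (0.28 ± 0.16). Pt-BarH1, a homeodomain gene, went the other way, from 30.1 to 27.0 CPM and from 37.6 to 35.4 CPM, with 209 and 205 CPM untreated (-0.12 ± 0.17). The model aug3.g416, the coding region of Pt-snail, was also lower in both later sacs, from 5.71 to 3.73 CPM and from 5.88 to 4.53 CPM (-0.48 ± 0.32). The other model of Pt-snail, aug3.g417, split by female, from 7.24 to 4.66 CPM and from 5.2 to 6.15 CPM (-0.16 ± 0.30). Of the 9 models grouped as activated by Hh, which include both Pt-snail models, 5 were higher in the later sac of both females and 2 lower. Of 6 others grouped as needing both Pt-hh and Pt-ptc, some of them described below, 2 were higher and 2 lower in both females. The shares over all models tested were 25.2% higher in both and 23.3% lower in both. None of the 9 was called between the sacs, where 0.109% of all models tested were.

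Genes that Hh represses stayed raised. Pt-msx1, a homeodomain gene of segmentation, was at 187, 460 and 419 CPM in female 1 and at 248, 487 and 481 CPM in female 2. The sac difference was -0.08 ± 0.16 (adjusted p = 0.998). Pt-AP2-A was at 90.9, 162 and 209 CPM and at 93.8, 262 and 267 CPM, and Pt-bcl11 at 35, 90.4 and 89.3 CPM and at 39.7, 77.9 and 84.2 CPM. Neither gene's sacs overlapped the untreated level. Pt-ed, a cell adhesion gene, split by female: it went from 356 to 452 CPM in female 1 and from 351 to 279 CPM in female 2, values that averaged to a difference of 0.00 ± 0.16. Pt-RTP-B has 2 models, of a single gene by the study's account. aug3.g407 was at 65.6, 130 and 164 CPM in female 1 and at 161, 195 and 239 CPM in female 2 (0.31 ± 0.15, adjusted p = 0.883). aug3.g22741 was at 6.71, 9.61 and 20.5 CPM and at 6.39, 18.5 and 17 CPM (0.42 ± 0.22). Neither model passed for a response over the 4 libraries (edgeR, adjusted p = 0.0232 and 0.015).

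Pt-mirr4, an Iroquois homeodomain gene, had the smallest adjusted p of the 39 named genes and models (0.308). It was at 65.3 and 42.5 CPM in the earlier and later egg sac of female 1 and at 60.3 and 46.3 CPM in female 2, against 78.8 and 66 CPM untreated. The later sac was thus the lowest of the 3 in both females (-0.50 ± 0.16). Pt-rhomboid, an intramembrane protease of EGF signalling in Drosophila, had the same order, with 28.6, 19.6 and 13.8 CPM and 36.6, 23.3 and 18.1 CPM (-0.43 ± 0.20, adjusted p = 0.864). Pt-noggin-D, of a family of secreted BMP antagonists, separated the females rather than the sacs: it was at 33.9% and 35.5% of untreated in female 1 and at 89.3% and 101% in female 2.

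Of the 39, 37 were tested, while Pt-pax6-A and Pt-fd102C were under 1 CPM in all 4 libraries. None of the 37 passed the threshold of 0.01 between the sacs by edgeR, 4 had an unadjusted p under 0.05, and the differences ran from -0.50 to 1.19. In both females 10 were higher and 10 lower in the later sac, beside 25.2% and 23.3% of all models tested. Set against the same untreated libraries, 22 were called in the earlier sac, where 3.44% of all models were, 19 in the later one (1.43% of all models) and 17 in both. The study chose these genes partly on these libraries, so that their response is not independent evidence. A gene called in a single sac is not shown to differ between the sacs. No order of the sacs is read from these counts either: over all models the earlier sac had the more calls by the quasi-likelihood test, but the later one had them with the likelihood ratio test (435 against 825), with DESeq2 (115 against 218), with no low-count filter (398 against 422) and with the spread shared over all libraries of the stage (271 against 317).

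The wider response was taken from 1 of the comparisons the study used, all Pt-hh pRNAi libraries against untreated, and models called in gfp were left out. By it 146 models were lower and 280 higher (before that exclusion, 1.21% and 2.34% of those tested). These were chosen on the same 4 libraries, and what follows describes them. The fit took both sacs of a female as replicates, so that a large difference between the sacs worked against a model being chosen. For the lower models the median level was 47.7% of untreated in both egg sacs of female 1. In female 2 it was 37.5% in the earlier and 38.9% in the later sac. For the higher models it was 193% and 211% in female 1 and 278% and 281% in female 2. The females differed more from each other than the sacs did. The median difference between the sacs was 0.06 for the lower and 0.07 for the higher models, beside 0.00 over all 11971 models tested. Of the 146, 134 passed the low-count filter in the 4 libraries. Of the 414 tested models, 2 moved by 2-fold or more between the sacs, Pt-otd (1.19) and aug3.g12989 (-1.01). Neither was called (quasi-likelihood test, adjusted p = 0.838 and 0.216). Those called between the sacs were 2 others (background 0.109%), both among the higher models: aug3.g26944 (0.88) and aug3.g1733 (0.74).

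**Figure D2:**
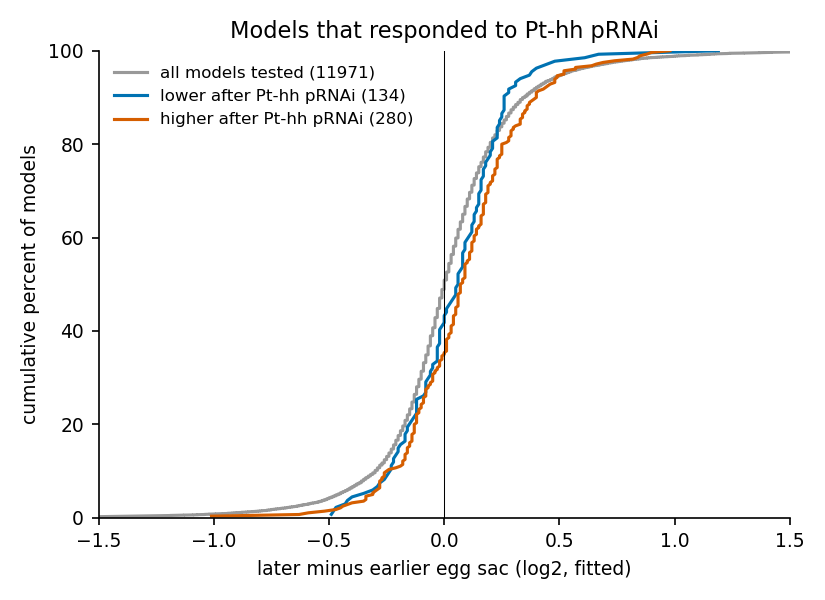
Cumulative percent of models against the fitted difference, later minus earlier egg sac (log2), for all 11971 models tested, the 134 tested models that were lower and the 280 that were higher after Pt-hh pRNAi. All 3 curves cross the middle near 0, with medians of 0.00, 0.06 and 0.07.

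Over all gene models, the later and the earlier egg sac differed in 13 of 11971 (0.109%), 11 higher (0.0919%) and 2 lower (0.0167%) in the later sac. At an adjusted p under 0.05 there were 22, and 608 at an unadjusted p under 0.05. These calls depend on how the spread was estimated. DESeq2 called 2 models, and a fit that shared the spread over all 24 late stage 5 libraries called 0. A female was left out only in that fit. It already called 0 with both females, so leaving 1 out could not show a dependence on a female. Among 7705 models with a mean of at least 10 CPM, the SD of the log2 ratio between the sacs was 0.263 in female 1 and 0.258 in female 2. In female 1, 22 of these models differed by 2-fold or more, and 19 did in female 2. The ratios of the females were not related across these models (Pearson r = -0.01, Spearman rho = -0.03; genes are not independent replicates).

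**Figure D3:**
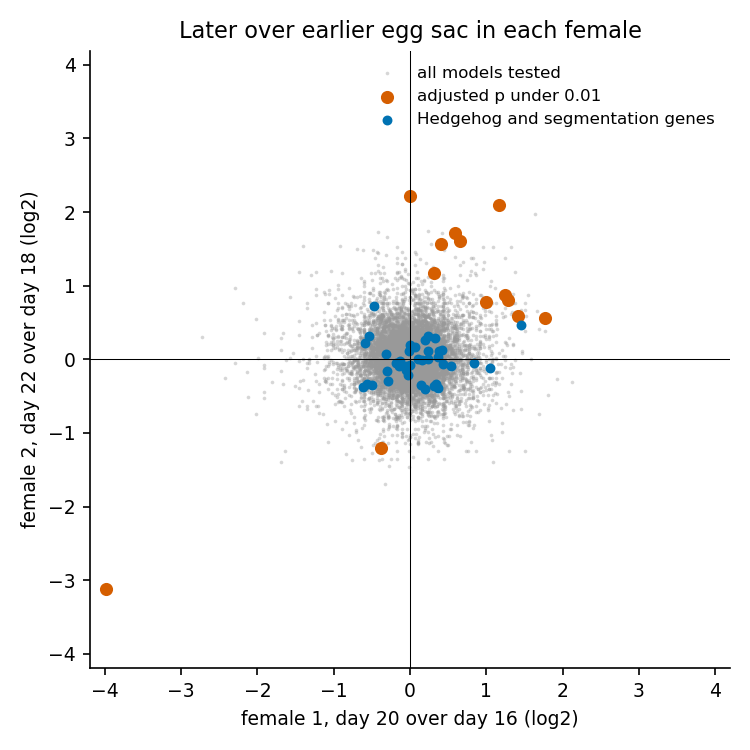
Log2 ratio of the later over the earlier egg sac in female 1 (x axis) and female 2 (y axis) for all models tested, with a pseudocount of 0.5 CPM; orange points passed an adjusted p of 0.01, blue points are the named Hedgehog and segmentation genes. The cloud is round (r = -0.01 over the more abundant models). Of the 13 called models 12 moved the same way in both females, which a test with the female as a block favours. Among all models tested 25.2% were higher and 23.3% lower in both.

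The smallest p of the 13 belonged to aug3.g20540, a model with no description (Ptep_1.0, Scaffold 3919, 44646 to 55884, plus strand). It was at 19.2 CPM in the earlier and 0.745 in the later sac of female 1, and at 16 and 1.39 CPM in female 2, with 2.03 and 1.15 CPM untreated. Only the earlier sacs were high (-3.92 ± 0.33, adjusted p = 9.77e-22). The same sacs were high at early stage 3, where it was 1 of 2 models called (-4.45 ± 0.47, adjusted p = 2.11e-17). It was also the 1 model called between the sacs of gfp females (-3.53, adjusted p = 0.000525). In the Pt-ptc females, however, the later sac was the high one in females 1 and 2, with 27.8 and 21.7 CPM, and the earlier one in female 3, with 16.7 CPM. Here CPM is by library total. Over all libraries, with the 2 columns of identical counts taken once, 23 lay at 7.65 CPM or above and 44 at 3.18 or below, and the high ones were 7 of 26 untreated and 16 of 41 pRNAi libraries. The high level of this model was thus found without Pt-hh dsRNA, and without any dsRNA.

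**Figure D4:**
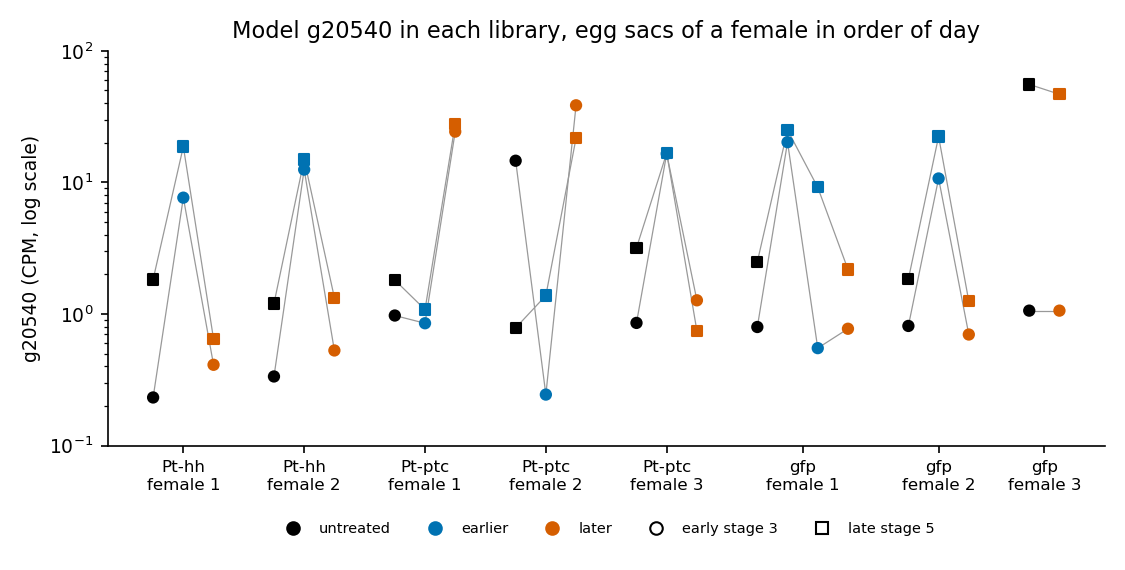
Model aug3.g20540 in each library of the Pt-hh, Pt-ptc and gfp females (CPM by library total, log scale), egg sacs of a female in order of day, circles early stage 3 and squares late stage 5. High and low libraries are separated by a gap from 3.18 to 7.65 CPM; in both Pt-hh females the earlier sac is high, in Pt-ptc females 1 and 2 the later one.

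Of the models that rose with the sac 3 already stood above untreated in the earlier sac. The first, aug3.g26944, annotated as a glyoxylate reductase/hydroxypyruvate reductase, was at 5.62, 44.4 and 88.7 CPM in the untreated, earlier and later sac of female 1 and at 2.17, 81.8 and 141 CPM in female 2 (0.88 ± 0.15, adjusted p = 3.58e-05). The second, aug3.g6604, a large neutral amino acids transporter small subunit, was at 4.22, 10.2 and 16.4 CPM and at 1.79, 12.6 and 39.5 CPM (1.23 ± 0.21, adjusted p = 3.58e-05). The third, aug3.g1733, annotated lethal(2)essential for life-like, a family of small heat shock proteins, was at 60.3, 360 and 445 CPM and at 33.1, 327 and 735 CPM (0.74 ± 0.16, adjusted p = 0.00872). Each of the 3 went up from untreated to earlier to later in both females. They were not particular to Pt-hh dsRNA: the untreated egg sac of gfp female 3 had 31.7, 27.7 and 414 CPM at late stage 5, and its pRNAi sac 0.435, 1.63 and 26.1 CPM. For aug3.g6604 the response over all 4 libraries did not pass (adjusted p = 0.0108). A solute carrier of family 25, aug3.g2435, had the same order, with 35.6, 80.1 and 106 CPM and 26.6, 90.3 and 165 CPM, and missed the threshold between the sacs (0.64 ± 0.15, adjusted p = 0.0218).

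**Figure D5:**
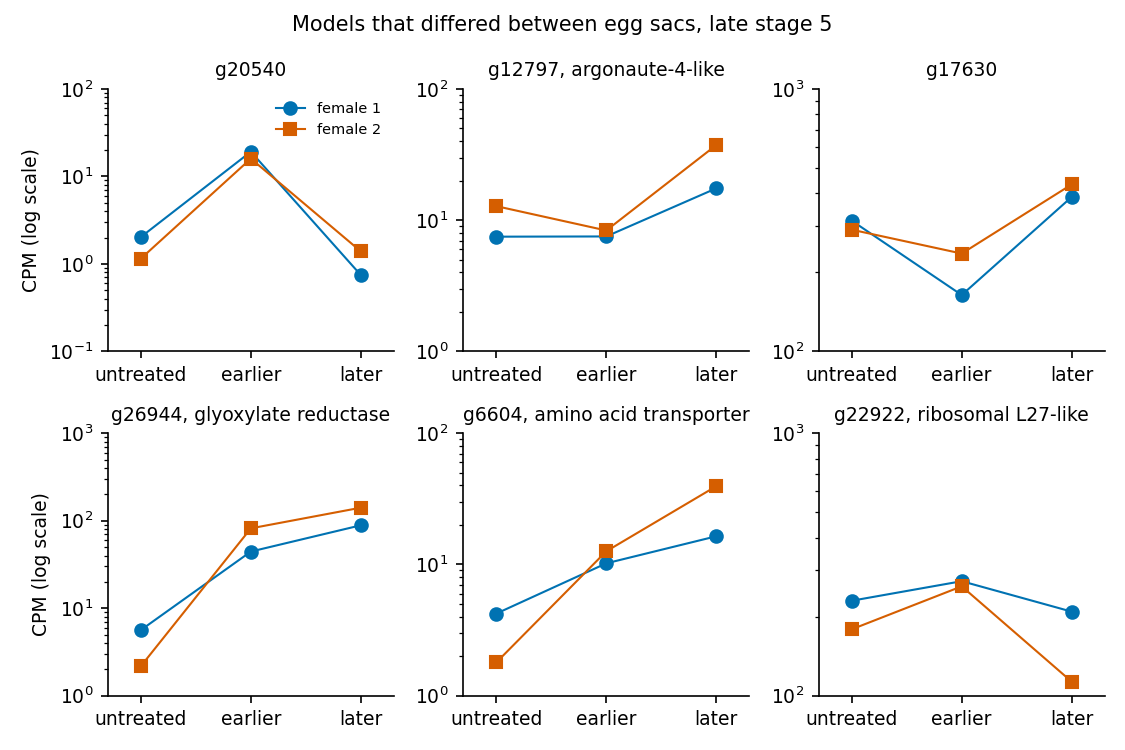
Level (CPM, log scale) of 6 of the 13 called models in the untreated, earlier and later egg sac of each Pt-hh female at late stage 5; points are single libraries. The reductase aug3.g26944 and the transporter aug3.g6604 went up at each step, to 141 and 39.5 CPM in the later sac of female 2, whereas aug3.g12797 and aug3.g17630 were higher in the later than in the earlier sac.

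Another 3 of the 13 belonged to the 18 models picked as abundant in the Pt-hh females. aug3.g17630 was at 315, 164 and 388 CPM in female 1 and at 291, 236 and 433 CPM in female 2 (1.05 ± 0.16, adjusted p = 3.08e-07). aug3.g7685 was at 26.7, 18.7 and 64.8 CPM and at 30.5, 34.6 and 51.1 CPM (1.14 ± 0.17, adjusted p = 6.83e-07), and aug3.g16142 at 16.9, 9.89 and 24.8 CPM and at 11.9, 12.9 and 23.0 CPM (1.06 ± 0.21, adjusted p = 0.00103). None of them has a description. The later sac was the highest of the 3 in both females. Summed over the 18 models, which were picked by level after the values were seen, female 1 had 204831, 129144 and 251918 CPM and female 2 had 141179, 172911 and 176452 CPM. The later sac was far above the earlier one in female 1 and close to it in female 2. The part of these models in the other differences was not tested beyond the choice of scaling.

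The remaining called models did not pass for a response over the 4 libraries; all but 1 rose from the earlier to the later sac. aug3.g12797, annotated argonaute-4-like, a protein family that binds small RNAs, was at 7.49, 7.52 and 17.5 CPM in female 1 and at 12.8, 8.35 and 37.4 CPM in female 2 (1.74 ± 0.22, adjusted p = 7.56e-10). Its level varied more widely between females than between these sacs, from 143 to 365 CPM at late stage 5 in gfp female 1 and from 2.76 to 11.9 CPM in gfp female 2. aug3.g25362, annotated ras-responsive element-binding protein 1, a zinc finger factor, was at 36.8, 12.8 and 35.2 CPM and at 27.1, 22.2 and 33.6 CPM, so that the earlier sac was the low one (0.99 ± 0.19, adjusted p = 0.000675). The uncharacterized aug3.g10049 and the models aug3.g4220 and aug3.g21452, which have no description, were called higher as well (1.10, 1.23 and 1.67). For aug3.g21452 this came from female 2 alone, with 2.23 and 2.24 CPM in female 1 and 3.28 and 17.2 CPM in female 2. aug3.g22922, a 60S ribosomal protein L27-like model, fell from 273 to 209 CPM and from 261 to 113 CPM (-0.80 ± 0.15, adjusted p = 0.000716).

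Annotated models were ranked by p only where they moved the same way in both females. Of them 5 higher and 1 lower were called, and the next ones by p did not pass 0.01. On the higher side these were aug3.g20563, cytochrome c oxidase subunit 3-like (0.72), aug3.g19752, a UPF0235 family protein (0.78), aug3.g2435, aug3.g25634, basic proline-rich protein-like (1.01), and aug3.g5179, kinesin heavy chain-like (0.64), with adjusted p from 0.0151 to 0.0255. On the lower side the nearest was aug3.g3063, multiple coagulation factor deficiency-like (-0.59, adjusted p = 0.0544). The 8 after it, with adjusted p from 0.255 to 0.389, included aug3.g16481, a collagen IV chain (-0.53), aug3.g16648, ubiquitin-like protein 3 (-0.49), aug3.g7300, 40S ribosomal protein S23-like (-0.47), and Pt-mirr4.

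Gene groups were formed by words in the deposited descriptions, and their counts of calls stand beside 0.109% over all models. Of 82 cytosolic ribosomal protein models tested, 42 were lower in the later sac of both females and 1 was higher in both, beside 23.3% lower in both and 25.2% higher in both over all models. Their median difference was -0.16, with -0.03 in female 1 and -0.30 in female 2, and aug3.g22922 was the 1 that passed. Of 22 models of RNA interference and small RNA proteins tested, 1 was called, aug3.g12797, and the median was 0.05. No model was called among 57 heat shock and chaperone models (median 0.08; the list, made from words, does not hold aug3.g1733, which was called), 66 of the respiratory chain (-0.05), 78 of the cell cycle and replication (-0.04), 19 of innate immunity (0.02), 54 of the Wnt pathway (-0.02), and 35 of the BMP and Notch pathways (0.02). Of 12 Hh pathway models tested, 7 of which are described above, none was called either (median -0.11). Among markers of cell types, 0 were called of 40 neural (0.03), 11 muscle (-0.06), 15 mesoderm, endoderm and hemocyte (0.20), 6 cuticle (0.00) and 3 yolk or maternal tissue models (0.05). The last list summed to 101 and 133 CPM in the sacs of female 1 and to 122 and 94.4 CPM in those of female 2. In bulk embryos, fewer cells of a type and less RNA per cell cannot be told apart.

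The age of the embryos was read from models that rise or fall 4-fold or more from early stage 3 to late stage 5 in untreated Pt-ptc and gfp egg sacs. Between the Pt-hh sacs at late stage 5 the 1453 rising models tested had a median of -0.01 and the 986 falling ones a median of 0.08. Of the rising models 20.9% were higher and 23% lower in the later sac of both females, and of the falling ones 33.4% and 14.5%, beside 25.2% and 23.3% over all models. The shares called over all models were 0.0919% higher and 0.0167% lower in the later sac. Among the rising models 4 were called higher and 1 lower, and among the falling ones 2 higher, aug3.g12797 and aug3.g25362. In the pRNAi sacs of the Pt-hh females at early stage 3 these 2 were at 59.1 to 189 CPM and at 108 to 174 CPM. The part of embryo age in the differences was not tested. At early stage 3 the medians were 0.13 and -0.18.

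At early stage 3, when the knockdown was read in the same egg sacs, Pt-hh was at 23.7, 5.89 and 6.73 CPM in the untreated, earlier and later sac of female 1 and at 12, 3.96 and 1.51 CPM in female 2. The later sac differed by -0.40 ± 0.39 (adjusted p = 0.952), and the change of this difference between the stages, 0.56, did not pass (adjusted p = 1). Over all models 2 of 12908 (0.0155%) were called between the sacs at this stage, both lower, aug3.g20540 and aug3.g9248. The difference between the sacs changed with stage for 6 of 13770 models (0.0436%). Among them were aug3.g12797 (1.55 ± 0.28, adjusted p = 0.000329) and aug3.g25362 (1.30 ± 0.26, adjusted p = 0.00135), which did not pass at early stage 3.

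Set beside the other dsRNAs, the later egg sac differed from the earlier one in 0 of 11978 models in the 3 Pt-ptc females (0%) and in 1 of 12000 in the 2 gfp females (0.00833%). Without the day 13 egg sac of gfp female 1, the gfp females had 2 sacs each, as the Pt-hh females did. In that alternative, chosen after seeing the data, 27 models were called in the gfp females, beside 13 in the Pt-hh females. At an unadjusted p under 0.05 the main fits had 206 models in the Pt-ptc and 630 in the gfp females. The test of the difference itself called 0 of 12536 models for Pt-hh against gfp (598 at an unadjusted p under 0.05) and 0 of 12655 for Pt-hh against Pt-ptc (347 at that level). Other settings did call some of the 13 models. Against gfp, the likelihood ratio test of edgeR called 4 models, aug3.g4220 of the 13 among them (1.61, adjusted p = 0.00334), and DESeq2 called 0. Without the day 13 egg sac edgeR called aug3.g12797 (1.87, adjusted p = 0.0045). Against Pt-ptc, aug3.g12797 was called by the likelihood ratio test of edgeR and by DESeq2 (2.74 in each, adjusted p = 0.000992 and 0.00156), and aug3.g20540 by edgeR without Pt-ptc female 3 (-8.24, adjusted p = 2.94e-06). With no low-count filter 6 models were called against gfp and 3 against Pt-ptc, 2 of the 13 in each. By the quasi-likelihood test of edgeR, the smallest adjusted p against gfp belonged to aug3.g17950, holotricin-3-like (-1.21, adjusted p = 0.136). The SD of the sac ratios in single females, 0.239 to 0.306 at late stage 5 in the Pt-ptc and gfp females, took in those of the Pt-hh females.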

How the data were processed

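Counts of 27990 aug3 gene models were available for 68 libraries, and no column was left unused; 7 further samples were not analysed here. Per the paper's methods and the submitters' processing notes, reads were trimmed, aligned by BLAT to the Ptep_1.0 assembly and filtered for unique placement by the authors, who counted reads by strand with htseq-count (HTSeq 0.5.4p5). The deposited counts are whole numbers with no normalization. The deposited RPKM values and the authors' own comparisons (log2 fold changes and p-values) were not used.

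Tests used R 4.3.3 and edgeR 4.0.16 (quasi-likelihood F test, TMM scaling, models reaching 1 CPM in any library, Benjamini-Hochberg adjustment, threshold 0.01), after the study's design, with the female as a block. Labels name the same animal for both egg sacs, and across models the female differences in the earlier and later sacs correlated (r = 0.73). A difference between dsRNAs or stages was tested by an interaction term. SEs were computed from the F statistic. Per-library levels are TMM-scaled CPM, and single-female log2 ratios used a pseudocount of 0.5 CPM. Alternatives were RLE size factors, DESeq2 1.42.0, the likelihood ratio test, library size alone, no filter, filterByExpr, no block, a shared spread, a threshold of 0.05, and each female left out. Members, lists and named genes were chosen with earlier results of these data known. Named were all genes the study pairs with an aug3 number, up to 10 annotated models in each direction by smallest p, up to 3 in each direction for each test of a difference, and list members past the threshold. The 10 in each direction were taken only from models that moved the same way in both females. Models outside this rule were named after their values were seen.

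In simulated data with the layout of the 4 libraries (11971 models), the test recovered 76% of 100 models changed 2-fold and 99% of 100 changed 4-fold, and 1.13% of its 177 calls were false. The simulation gave every model the trended spread of these 4 libraries and none a spread of its own, so these rates do not describe the real calls. With 2 females, p-values rest on the spread shared among models more than on the females. No sequences are shown, since no genome of the files' build was used here.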

Additional observations from a re-analysis of the deposited data

Results flagged for a closer look

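For 6 models the change from the earlier to the later egg sac differed between late stage 5 and early stage 3 of the Pt-hh females (edgeR, interaction of sac and stage, log2, late minus early stage). It was 1.43 for aug3.g17630 (adjusted p = 2.71e-06), 1.21 for aug3.g14490 (adjusted p = 0.000796) and 1.2 for aug3.g11608 (adjusted p = 0.00176), all among the 18 models picked as high in these females. It was 1.55 for aug3.g12797, argonaute-4-like, and 1.30 for aug3.g25362, ras-responsive element-binding protein 1. For aug3.g6437, cathepsin S-like, it was -3.45 (adjusted p = 0.000891). That model was at 58.4, 99.9 and 82.9 CPM in the untreated, earlier and later sac of female 1 at late stage 5 and at 0.137 CPM or less in female 2, so that its value came from female 1. At early stage 3 it was at 3.97, 0.589 and 5.39 CPM in female 1 and at 0.197 CPM or less in female 2, so that the earlier sac was the low one there; the sac difference was 3.14 at that stage (adjusted p = 0.0444) and -0.28 at late stage 5. No model was called with the spread shared over the libraries. A female was left out only in that shared fit, so this could not show a dependence on a female.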

How the results depend on the processing

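The count of 13 models between the Pt-hh sacs was 2 with DESeq2, 1 with the spread shared with the untreated libraries, 0 with the spread shared over all libraries of the stage, 22 at an adjusted p of 0.05 and 0 with no replicate block; the 2 models called by DESeq2 were aug3.g20540 and aug3.g17630. Here and below, a female was left out only in the fit with the spread shared over all libraries. Counts from it belong beside the shared count, not the main one. Where the shared count was already 0, they cannot show a dependence on a female. Against untreated, leaving out a female left 1 untreated library of the Pt-hh females. The counts listed below for that setting therefore cannot show a dependence on a female, and nothing is concluded from them. With both females the shared counts were 271 for the earlier sac, 317 for the later sac and 413 for all Pt-hh libraries. RLE size factors, the likelihood ratio test and no filter each kept all 13, filterByExpr 12 and library size alone 7. Against untreated, the earlier sac's calls (278 higher and 138 lower) became 115 with DESeq2, 271 with the shared spread, 2 with no replicate block, and 44 to 171 with a female left out. The later sac's 172 became 422 with no filter, 825 with the likelihood ratio test, 317 with the shared spread, 577 at 0.05, 0 with no replicate block, and 51 to 193 with a female left out. For all Pt-hh libraries 435 became 881 with no filter, 783 with the likelihood ratio test, 801 at 0.05, 39 with no replicate block, and 84 to 288 with a female left out.

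Between the sacs at early stage 3, 2 calls became 5 with no filter, 1 with DESeq2, 20 at 0.05, and 0 with no replicate block, with the shared spread and without either female. For Pt-ptc, 0 became 7 with no filter and 0 to 1 with a female left out. For gfp, 1 became 2 with RLE size factors, 18 with no filter, 10 with the likelihood ratio test, 3 with DESeq2, 3 at 0.05, 0 with no replicate block, with the shared spread and without either female, and 27 without the day 13 egg sac, an alternative chosen after seeing the data. Pt-hh minus gfp went from 0 to 6 with no filter, 4 with the likelihood ratio test and 1 without the day 13 egg sac; with a female left out it was 0. Pt-hh minus Pt-ptc went from 0 to 3 with no filter, 1 with the likelihood ratio test, 1 with DESeq2, and 0 to 1 with a female left out. The 6 models of the stage difference became 10 with no filter, 1 with DESeq2, 11 at 0.05, and 0 with no replicate block, with the shared spread and without either female. Causes were not tested.

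The median of the models lower after Pt-hh pRNAi, 0.06, was 0.00 by library size alone and 0.00 to 0.04 with a female left out, and that of the higher models 0.00 to 0.12. Leaving out a female turned the sign of uncalled differences: Pt-hh -0.09 to 0.50, Pt-ptc -0.03 to 0.15, Pt-gas1 -0.42 to 0.18, Pt-ets1 -0.40 to 0.33, aug3.g417 of Pt-snail -0.64 to 0.22, Pt-bcl11 -0.03 to 0.09, Pt-RTP-B -0.14 to 1.08, Pt-noto1 -0.33 to 0.05, Pt-osr-B -0.02 to 0.10, Pt-sp6-9 -0.37 to 0.13, Pt-Scr-A -0.11 to 0.53, Pt-ets21c -0.59 to 0.31, Pt-prd2 -0.42 to 0.35, Pt-asl-H -0.02 to 0.23, Pt-krü-1 -0.07 to 0.86, Pt-hairy-D -0.50 to 0.74, aug3.g11359 -0.23 to 0.04 and aug3.g16547 -0.36 to 0.21. Library size alone turned Pt-bcl11 and Pt-osr-B to -0.01 each, and no replicate block turned Pt-ets21c to 0.02. The low counts of Pt-hh and Pt-otd after pRNAi limited how small a change could be seen.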

Other observations

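The models aug3.g1733 and aug3.g26944, which went up over the Pt-hh egg sacs, were also high in 1 female of the Pt-msx1 experiment before injection. By library total, aug3.g1733 was at 835 CPM and aug3.g26944 at 258 CPM in the untreated late stage 5 library of Pt-msx1 female 1, and at 30.7 and 4.44 CPM in its pRNAi library. In the untreated early stage 6 library of that female they were at 3080 and 333 CPM. In the untreated late stage 5 libraries of Pt-msx1 females 2 and 3 they were at 44 and 1.86 CPM and at 44.7 and 1.43 CPM.

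The model aug3.g20540 did not always keep its level between stages of an egg sac. In the untreated egg sac of gfp female 4 it was at 1.74 CPM at late stage 5 but 47.4 CPM at early stage 6; gfp female 5 had 25.5 and 1.63 CPM there. A second model with no description, aug3.g23906, was higher in the same Pt-hh sacs at late stage 5, with 2.23 CPM in the earlier and 0.373 in the later sac of female 1 and 2.05 and 0.581 CPM in female 2 (adjusted p = 0.336).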
